A study of Mus musculus with 8 samples.

Results

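Transcript levels of 10 Sox genes (Sox4, Sox5, Sox6, Sox7, Sox8, Sox9, Sox11, Sox12, Sox17 and Sox18) were followed through 8 mouse tumours measured by bulk RNA sequencing. They are 10 of the 35275 genes in the deposited count table and were taken by symbol from the Sox family. The list was drawn up because Sox11 was far lower in tumours labelled Pak2-null, so the difference between the Pak2 groups chose it and is given here as a description, without a test. All 10 had enough counts to enter the analysis of all genes.

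Every tumour came from mice with floxed alleles of Nf2, which encodes the tumour suppressor Merlin, and of Cdkn2a, which encodes p16Ink4a and p19Arf, and the labels give both genes as -/- in all 8. An adenovirus carrying Cre recombinase was injected into the peritoneal cavity. In 3 primary peritoneal tumours (19, 20 and 127) Pak2 was wild-type, Pak2 +/+. In 4 primary peritoneal tumours (13, 14A, 59 and 61) Pak2 was floxed and is labelled -/-, as it is in tumour 14B, labelled only as a secondary tumour. Pak2 encodes a p21-activated kinase that acts downstream of Rac and Cdc42. Which cells took up the virus, the strain, the age, and whether each tumour had its own mouse are not in the labels, so p-values measure the spread between these samples.

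Sox proteins bind DNA through an HMG box related to that of the testis-determining factor Sry, and bend it at sites close to the letters AACAAT. They fall into subgroups whose members resemble each other in sequence and often act together. SoxC proteins (Sox4, Sox11 and Sox12) mark embryonic neural and mesenchymal progenitors, SoxD proteins (Sox5 and Sox6) lack a transactivation domain and assist or counter others, SoxE proteins (Sox8 and Sox9 here) direct neural crest, cartilage and gonad, and SoxF proteins (Sox7, Sox17 and Sox18) act in blood and lymph vessels.

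The tumours held from 13469851 to 20402401 counts, and a gene without counts could still have been present at up to 3 counts, or 0.139 to 0.193 CPM in the 7 primaries and 0.311 CPM in 14B, as far as counting error goes. CPM denotes read counts scaled by effective library size. Pak2 transcripts were not lower where Pak2 is labelled null, at 179.97 ± 44.9 against 103 ± 20.9 CPM (mean ± SD, n = 4 and n = 3), so the groups are called by their label. Pak2 was in fact higher in every tumour labelled Pak2-null (130.7 CPM or more) than in the wild-type tumours (127.5 CPM or less). Nf2 stood at 74.6 to 142 CPM and Cdkn2a at 2.37 to 6.43 CPM in the 8 tumours, and Cdkn2a was higher in every tumour labelled Pak2-null (3.89 CPM or more) than in the wild-type tumours (3.15 CPM or less). Xist, which females express, stood at 151, 459 and 26.6 CPM in wild-type tumours 19, 20 and 127 and at 1.33 CPM or less in every tumour labelled Pak2-null. The Y-linked Ddx3y stood at 1.62, 1.24 and 116 CPM in wild-type 19, 20 and 127 and at 84.2 CPM or more in every tumour labelled Pak2-null. Tumour 127 thus had transcripts of both kinds, and sex and Pak2 label cannot be told apart in this comparison. Mesothelial markers (13 of 15 tested, 8 lower and 5 higher in mean where Pak2 is labelled null, median log2 fold change -0.38, but 1.16 without tumour 19) summed to 51.9 to 384 CPM in the wild-type and 26.1 to 411 CPM in the 4 Pak2-null-labelled primaries. Calb2 and Muc16 were under 1 CPM in every tumour, and Msln and Upk3b stood at 1.11 and 0.124 CPM in tumour 13. Msln was at 60.5 and 132 CPM in tumours 59 and 61, above the wild-type range of 22.8 to 26.2 CPM, and at 8.99 CPM in 14A. Upk3b was at 8.89 CPM in tumour 61, within the wild-type range of 0.513 to 14.2 CPM.

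Sox11, Sox8 and Sox6 were the members with the widest gap between the Pak2 groups: in each, all 4 primary tumours labelled Pak2-null lay below all 3 wild-type tumours. The other 7 overlapped. Of all 15412 genes tested, 8.93% had groups that did not overlap with the tumours labelled Pak2-null lower and 5.07% with them higher, against 3 and 0 of these 10 genes. That share is a background for the count and nothing more, since Sox11 was picked on this contrast.

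**Figure D1:**
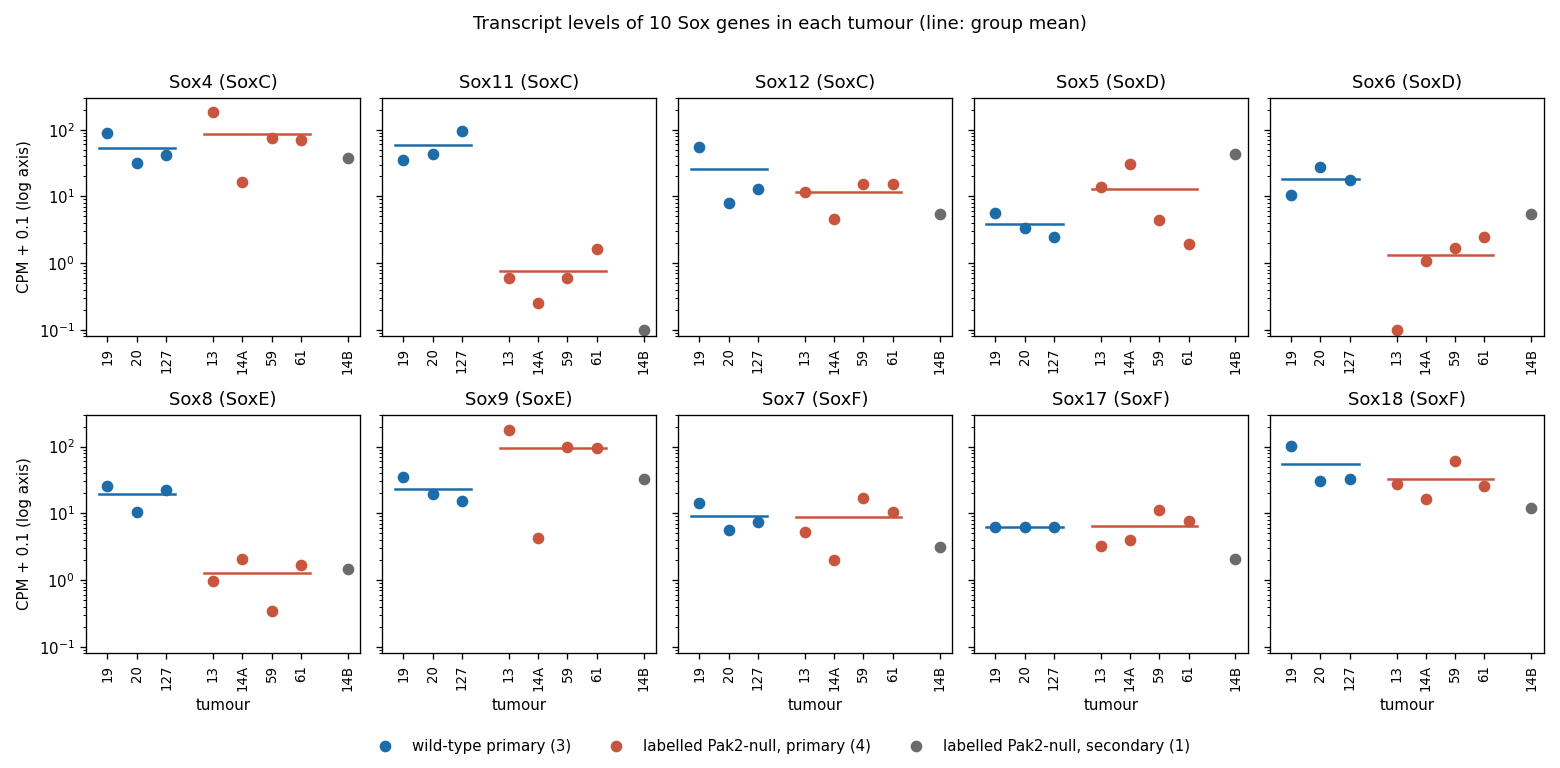
Level of each Sox gene in each tumour, as CPM plus 0.1 on a log axis, with blue points for the 3 wild-type primary tumours, red for the 4 primary tumours labelled Pak2-null, grey for secondary tumour 14B, and lines at group means. Sox11, Sox8 and Sox6 separate the primary groups, Sox9 and Sox4 share a low point in tumour 14A, and Sox5 is highest in 14A and 14B.

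Sox11 is a SoxC gene of embryonic neurons and mesenchyme that is silent in most adult tissues. It stood at 34.6, 43.8 and 96.9 CPM in wild-type tumours 19, 20 and 127. It stood at 0.495, 0.154, 0.494 and 1.502 CPM in Pak2-null-labelled 13, 14A, 59 and 61. The lowest wild-type tumour, 19, was thus far above the highest of the others, 61, and no value of one group came near the other. Tumour 61 gave 26 counts and tumour 14A only 3, whereas the wild-type tumours gave from 706 to 1510. The group means were 58.5 ± 33.6 and 0.661 ± 0.583 CPM (SD, n = 3 and n = 4), a ratio of 88.4, and the log2 fold change, Pak2-null minus wild-type, was -6.44 (SE 0.79). Leaving out each tumour in turn gave -7.22 to -5.87 (the value nearest to 0 without tumour 127). Tumour 127, with transcripts of both Xist (26.6 CPM) and Ddx3y (116 CPM), had the highest Sox11 of all. The part of sex in the difference was not tested.

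The gene has a single exon and lies on the minus strand at chromosome 12, 27334264 to 27342574 (GRCm38, ENSMUSG00000063632), with no other gene annotated over it. The longest stretch of its transcript found elsewhere at 95% identity or more was 35 bases, in Sox1, which had no counts. The 250 bases before its RefSeq start (GRCm38.p6), shown because this is the member with the largest difference, hold 17 CG dinucleotides, where the median promoter has 6. The start lies 144 bases upstream of the start in the deposited table, and the capitals mark an E-box, CAGCTG, the only match to the motifs searched.
Sox11 promoter, chr12:27342719-27342968, minus strand: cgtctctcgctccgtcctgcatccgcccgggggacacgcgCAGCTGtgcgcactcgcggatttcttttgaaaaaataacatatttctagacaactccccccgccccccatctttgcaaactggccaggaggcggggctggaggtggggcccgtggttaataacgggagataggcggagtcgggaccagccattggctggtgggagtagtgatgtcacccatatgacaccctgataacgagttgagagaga

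Sox4, its SoxC relative with roles in lymphocyte and progenitor development, did not follow Sox11. It stood at 88.6, 31.2 and 41.7 CPM in wild-type tumours 19, 20 and 127, and at 183, 16.2, 75.2 and 68.9 CPM in Pak2-null-labelled 13, 14A, 59 and 61. Tumour 13 was the highest and tumour 14A the lowest of all 8, both with the same Pak2 label, so the spread within that group (SD 69.9 CPM) exceeded the distance between the group means. The log2 fold change was 0.70 (SE 0.75) and was 0.005 without tumour 13. Sox12, a weaker activator of the same subgroup, stood at 55.2, 7.82 and 12.6 CPM in wild-type tumours 19, 20 and 127 and at 11.7, 4.47, 15.3 and 15.1 CPM in Pak2-null-labelled 13, 14A, 59 and 61. Its higher wild-type mean rests on tumour 19: the log2 fold change was -1.09 (SE 0.73), and 0.19 without that tumour. Within SoxC, then, Sox11 alone had groups that did not overlap. SoxC transcripts summed to 178, 82.8 and 151 CPM in the wild-type tumours and 195, 20.8, 90.97 and 85.5 CPM in tumours 13, 14A, 59 and 61, ranges that overlap.

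Sox6, a SoxD gene that in skeletal muscle holds back slow-fibre genes and in cartilage assists Sox9, stood at 10.3, 27.2 and 17.7 CPM in wild-type tumours 19, 20 and 127. It stood at 0, 0.976, 1.605 and 2.37 CPM in Pak2-null-labelled 13, 14A, 59 and 61. Tumour 13 had no Sox6 counts, which allows up to 0.186 CPM. Tumour 14B, outside the comparison, stood higher than these 4 at 5.29 CPM and still below every wild-type tumour. The group means were 18.4 ± 8.45 and 1.24 ± 1.002 CPM, the log2 fold change was -3.87 (SE 1.10), and it ran from -4.38 to -3.46 with 1 tumour left out. Sox6 spans chromosome 7, 115471344 to 116038744 (minus strand, ENSMUSG00000051910), and the opposite-strand RNA Sox6os, in the same interval without sharing exon bases, reached 4 counts at most.
Sox6 promoter, chr7:116038745-116038994, minus strand, with the TEAD motif GGAATG in capitals: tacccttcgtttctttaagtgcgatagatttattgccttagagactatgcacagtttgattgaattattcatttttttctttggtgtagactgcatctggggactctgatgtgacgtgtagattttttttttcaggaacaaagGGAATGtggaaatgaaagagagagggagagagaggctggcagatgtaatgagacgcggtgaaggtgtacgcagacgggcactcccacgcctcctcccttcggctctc

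Sox5, the other SoxD gene, had its higher mean where Pak2 is labelled null, with the high values in other tumours. It stood at 5.47, 3.29 and 2.37 CPM in wild-type tumours 19, 20 and 127 and at 13.5, 30.9, 4.38 and 1.85 CPM in Pak2-null-labelled 13, 14A, 59 and 61, so tumours 13 and 14A were above all wild-type tumours while 59 and 61 lay within or below them. In tumour 14B it reached 43.5 CPM, the highest of all. The log2 fold change was 1.79 (SE 0.94), and 0.85 without tumour 14A. Sox5 is also a gene of some B cells, and lymphocyte markers (12 of 12 tested, all higher in mean, median log2 fold change 1.38, but -0.28 without tumour 14A) summed to 4240.2 and 2649 CPM in 14A and 14B, against 306 to 1123 CPM in the wild-type tumours. The B-cell gene Cd79a stood at 117 and 26.1 CPM there, and at 32.3 CPM in wild-type tumour 20, where Sox5 was at 3.29 CPM. Tumour 13, next in Sox5 after these, had the lowest lymphocyte sum of all, 98.2 CPM, and 0.557 CPM of Cd79a. The part of lymphocytes in the Sox5 levels was not tested. In a bulk tumour, fewer cells of a type and less RNA per cell cannot be told apart, here or in any result that follows.

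The SoxE genes had group means that lay in opposite order. Sox8, which is expressed in neural crest derivatives, gonad and muscle precursors, stood at 25.2, 10.4 and 22.5 CPM in wild-type tumours 19, 20 and 127 and at 0.867, 1.95, 0.247 and 1.56 CPM in Pak2-null-labelled 13, 14A, 59 and 61. The lowest wild-type tumour, 20, was above the highest of the others, 14A, with means of 19.4 ± 7.88 and 1.16 ± 0.755 CPM. The log2 fold change was -4.04 (SE 0.70), from -4.41 to -3.72 with 1 tumour left out. Sox8 lies at chromosome 17, 25565892 to 25570686 (minus strand, ENSMUSG00000024176). Its exons share 329 bases with the opposite-strand RNA 2810468N07Rik. That RNA gave 110, 59 and 70 counts in wild-type tumours 19, 20 and 127, where Sox8 gave 544, 168 and 351, and 17, 27, 14 and 15 in tumours 13, 14A, 59 and 61, where Sox8 gave 14, 38, 4 and 27. The strand setting of the counting is not given in the sources used here, so reads from the shared bases cannot be told apart.
Sox8 promoter, chr17:25570687-25570936, minus strand, with no match to the motifs searched: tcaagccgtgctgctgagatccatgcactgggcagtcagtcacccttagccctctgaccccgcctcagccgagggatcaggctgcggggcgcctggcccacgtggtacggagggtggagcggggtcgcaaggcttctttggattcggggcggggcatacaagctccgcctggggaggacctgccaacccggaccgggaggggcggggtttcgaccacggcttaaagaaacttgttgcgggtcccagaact

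Sox9, the regulator of cartilage and of duct epithelium, was 34.8, 19.1 and 15.02 CPM in wild-type tumours 19, 20 and 127. It was 177, 4.11, 100.04 and 95.996 CPM in Pak2-null-labelled 13, 14A, 59 and 61. Tumours 13, 59 and 61 were all well above the wild-type tumours and tumour 14A was below them, so the groups overlapped through that tumour alone. The means were 22.96 ± 10.5 and 94.4 ± 70.9 CPM, with a log2 fold change of 2.06 (SE 1.01) that ran from 1.55 to 2.48 with 1 tumour left out. Duct and gland markers (9 of 12 tested, 6 lower and 3 higher, median -1.36, but 0.74 without tumour 19) did not order the tumours like Sox9: tumour 13, the highest in Sox9, had the lowest sum, 5.202 CPM, against 9.01 CPM in tumour 59, 161 CPM in tumour 61 and 17.2 to 169.9 CPM in the wild-type tumours. The part of duct cells in the Sox9 levels of the primary tumours was not tested. Over the 8 tumours Sox9 and Sox4 had a Pearson r of 0.903 in log2 CPM, the highest of the 45 pairs of members, followed by Sox12 with Sox18 (0.902) and Sox8 with Sox11 (0.868). All points share libraries and scaling.

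**Figure D2:**
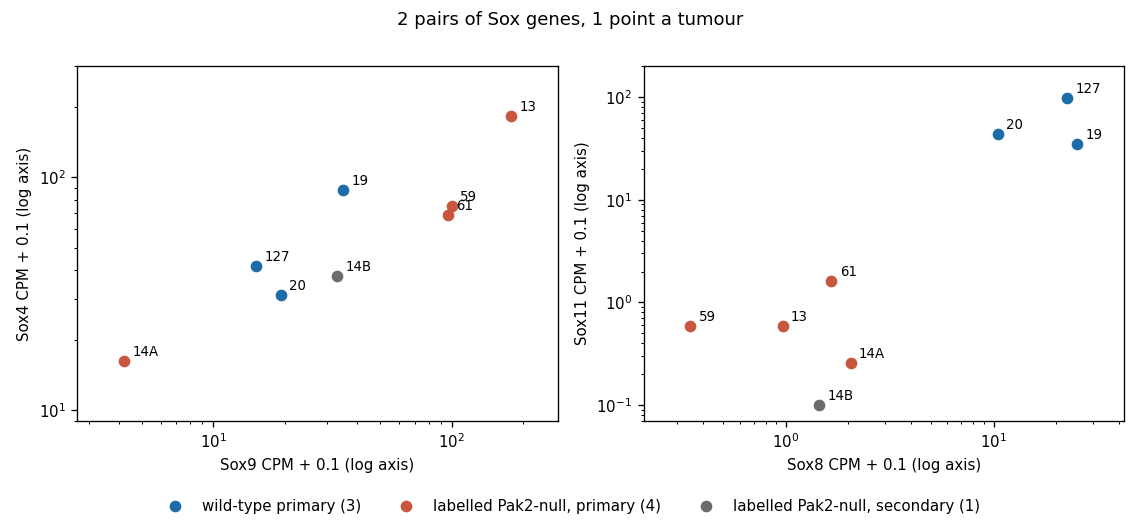
Sox4 against Sox9 and Sox11 against Sox8, 1 point a tumour, as CPM plus 0.1 on log axes. In the first pair tumour 13 is highest and 14A lowest in both genes, and in the second the 3 wild-type tumours stand apart from the other 5 (Sox11 had 0 counts in 14B).

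The SoxF genes had Pak2 groups that overlapped in all 3 cases. Sox18, a regulator of lymphatic and arterial vessels, stood at 101, 30.7 and 32.8 CPM in wild-type tumours 19, 20 and 127 and at 27.1, 16.3, 60.98 and 25.8 CPM in Pak2-null-labelled 13, 14A, 59 and 61, with tumours 19 and 59 highest and tumour 14A lowest. Sox7 stood at 14.05, 5.46 and 7.38 CPM in wild-type tumours 19, 20 and 127 and at 5.202, 1.902, 16.7 and 10.5 CPM in Pak2-null-labelled 13, 14A, 59 and 61, again with 19 and 59 highest. Sox17, needed in arterial endothelium and endoderm, stood at 6.07, 6.15 and 6.22 CPM in wild-type tumours 19, 20 and 127. That was the tightest spread of any member, but it rests on 131, 99 and 97 counts, where counting error is wider. In Pak2-null-labelled 13, 14A, 59 and 61 Sox17 stood at 3.096, 3.85, 11.2 and 7.51 CPM. On the log2 scale the difference was -0.73 (SE 0.59) for Sox18, -0.05 (SE 0.72) for Sox7 and 0.08 (SE 0.51) for Sox17. Without tumour 19 the values were 0.041 for Sox18 and 0.42 for Sox7, and without tumour 59 that for Sox17 was -0.35.

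Endothelial markers, 20 of 20 tested, gave the vessels of each tumour a reference. Of these 17 were lower and 3 higher in mean, and the median of their log2 fold changes was -0.23 (0.085 without tumour 19) beside 0.06 for all genes tested. Their sums were 1555, 734 and 906 CPM in the wild-type tumours and 622, 1085, 1206 and 629 CPM in tumours 13, 14A, 59 and 61. Scaled to the marker sum, as CPM per 1000 CPM of these markers, Sox18 came to 64.9, 41.8 and 36.2 CPM in wild-type 19, 20 and 127, and to 43.5, 15.1, 50.6 and 40.9 CPM in tumours 13, 14A, 59 and 61. Tumour 14A stands out as low, and so does 14B at 12.2 CPM. In those 2 tumours the adhesion gene Pecam1, which leukocytes express too, was highest (438 and 451 CPM), while the endothelial cadherin gene Cdh5 was lowest (46.8 and 40.2 CPM). Pecam1 is one of the genes summed. The other markers were mixed in 14A and 14B. Kdr (57.8 and 51.2 CPM) and Flt1 (51.5 and 71.5 CPM), both receptor genes, lay within the wild-type ranges of 35.4 to 65.4 and 30.9 to 82.5 CPM. Below the wild-type ranges lay Tek (11.9 and 14.0 CPM, against 27.9 to 45.2) and Mmrn2 (26.2 and 19.1 CPM, against 28.1 to 67.6). So did Tie1 (23.2 and 21.6 CPM, against 53.3 to 91.6). Tumours 13 and 61 were below these ranges as well in Tek, Mmrn2 and Tie1, and tumour 59 in Tek alone (25.9 CPM). Tek, Mmrn2 and Tie1 were named as the markers with the lowest p between the Pak2 groups. Cdh5 was also the gene most like Sox18 over the 8 tumours, with r = 0.981. The part of endothelial cells in the SoxF levels was not tested.

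**Figure D3:**
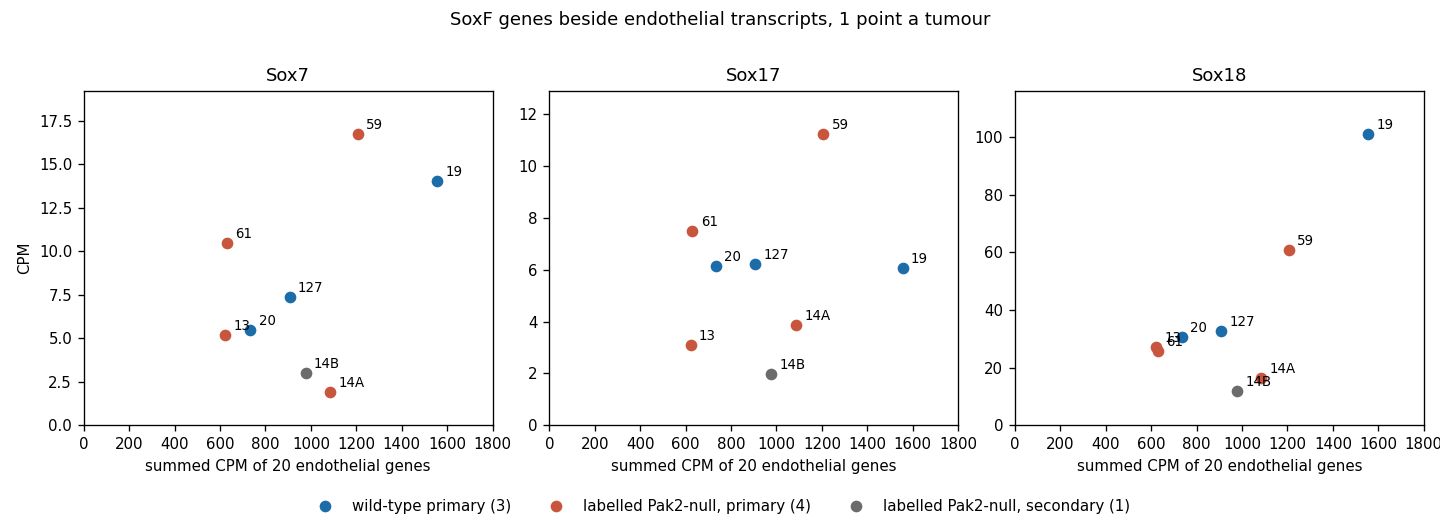
Sox7, Sox17 and Sox18 in CPM against the summed CPM of 20 endothelial genes, 1 point a tumour, on linear axes from 0. Tumours 19 and 59 are high in Sox18 and in the endothelial sum, whereas 14A and 14B are low in Sox7 and Sox18 for their endothelial sum. In Sox17, 14A is near wild-type tumour 19 by that measure (3.55 and 3.90 CPM per 1000 CPM of markers).

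Set side by side with the standard errors, Sox11, Sox8 and Sox6 were at -6.44, -4.04 and -3.87, and the other 7 members between -1.09 and 2.06. The median over the 10 was -0.39 (0.13 without tumour 19), beside 0.06 for all genes tested, with 6 lower and 4 higher in mean. None of the 10 was among the 11 genes (0.0714% of those tested, 0.0519% lower and 0.0195% higher) called by edgeR's quasi-likelihood fit after Benjamini-Hochberg adjustment. At an unadjusted p under 0.05 there were 3, all lower, where 8.55% of all genes tested were lower by that rule. DESeq2 called 3 of the 10 and 1149 of all 15412 genes tested, limma-voom 0 and 25, and limma-voom with quality weights 3 and 950. As the contrast chose the list, nothing is read from these counts.

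**Figure D4:**
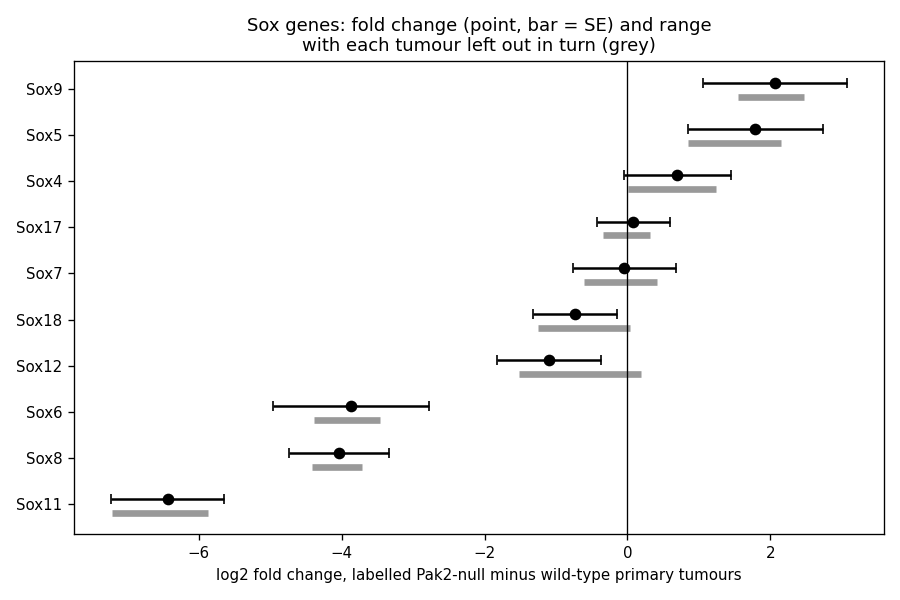
Log2 fold change (labelled Pak2-null minus wild-type primary tumours) of each Sox gene, with points and bars for the estimate and its SE and a grey bar for the range when each of the 7 tumours is left out in turn. The grey bars of Sox11, Sox8 and Sox6 stay below -3, and those of Sox7, Sox12, Sox17 and Sox18 cross 0.

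Levels of different genes were compared per kilobase of gene length. In the wild-type tumours Sox18 led with 33.8 ± 24.7 CPM per kilobase (mean ± SD, n = 3), above Sox4 at 11.2 ± 6.38, without overlap of their ranges. Sox11 (7.03 ± 4.04), Sox8 (6.46 ± 2.63), Sox12 (5.66 ± 5.85) and Sox9 (5.55 ± 2.53) followed, then Sox7 (2.72 ± 1.37), Sox6 (2.24 ± 1.03) and Sox17 (1.96 ± 0.0242). From Sox4 to Sox17 each overlapped its neighbour, and Sox5 was last without overlap at 0.512 ± 0.2196. Among the Pak2-null-labelled primaries the order was Sox9 (22.8 ± 17.2, n = 4), Sox18 (20.1 ± 12.1), Sox4 (17.9 ± 14.6), Sox12, Sox7, Sox17 and Sox5, and then Sox8 (0.386 ± 0.252), Sox6 (0.1504 ± 0.122) and Sox11 (0.0796 ± 0.0701), with each neighbour overlapping. By group mean Sox11 thus stood behind only Sox18 and Sox4 in the wild-type order and last in the other. In tumour 19, at 4.17 CPM per kilobase, it was also below Sox12 (12.4), Sox9 (8.42), Sox8 (8.41) and Sox7 (4.26). It kept its place in tumour 20, and only Sox18 was above it in tumour 127. By subgroup, SoxE transcripts were 15.99%, 15.9% and 14.7% of the summed CPM of the 10 genes in wild-type 19, 20 and 127, and 42.2%, 7.502%, 35.04% and 42.2% in tumours 13, 14A, 59 and 61. SoxD transcripts were 39.4% and 34.1% of that sum in 14A and 14B and at most 16.5% elsewhere.

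Skeletal muscle transcripts were high and low in the same groups of tumours as Sox11, Sox8 and Sox6. Fast muscle genes (15 of 16 tested, all lower, median log2 fold change -6.00) summed to 3037, 36188 and 26172 CPM in wild-type 19, 20 and 127 and to 13.6, 38.4, 413 and 851 CPM in tumours 13, 14A, 59 and 61. Myod1, the myogenic determination factor, stood at 9.09, 102 and 338 CPM in the wild-type tumours and from 0 to 2.77 CPM in the other primaries, and the log2 fold change of the sarcomere gene Ttn was -6.33 (SE 1.44), that of Neb -5.86 (SE 1.39). Tumour 19 had the lowest muscle sum of the wild-type tumours and the highest Sox8, 25.2 CPM. Its Sox11 level, 34.6 CPM, was near that of tumour 20, 43.8 CPM, although the muscle sums of the pair differed widely. Within the wild-type tumours Sox6 kept the order of the muscle sum, and in the 4 primary tumours labelled Pak2-null it did so too. Tumour 14B broke that order, with 5.29 CPM of Sox6 and a muscle sum of 20.5 CPM. The part of muscle cells in these 3 Sox genes was not tested. Slow muscle genes, which Sox6 is known to repress, were lower as well: all 10 tested had a lower mean, with a median of -6.32, among them Tnnt1 at -6.31 (SE 1.16), Myh7b at -4.98 (SE 1.02) and Myh7 at -7.61 (SE 1.66). Tpm3 and Atp2a2 changed far less, at -0.74 (SE 0.38) and -0.80 (SE 0.47), with groups that overlapped.

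**Figure D5:**
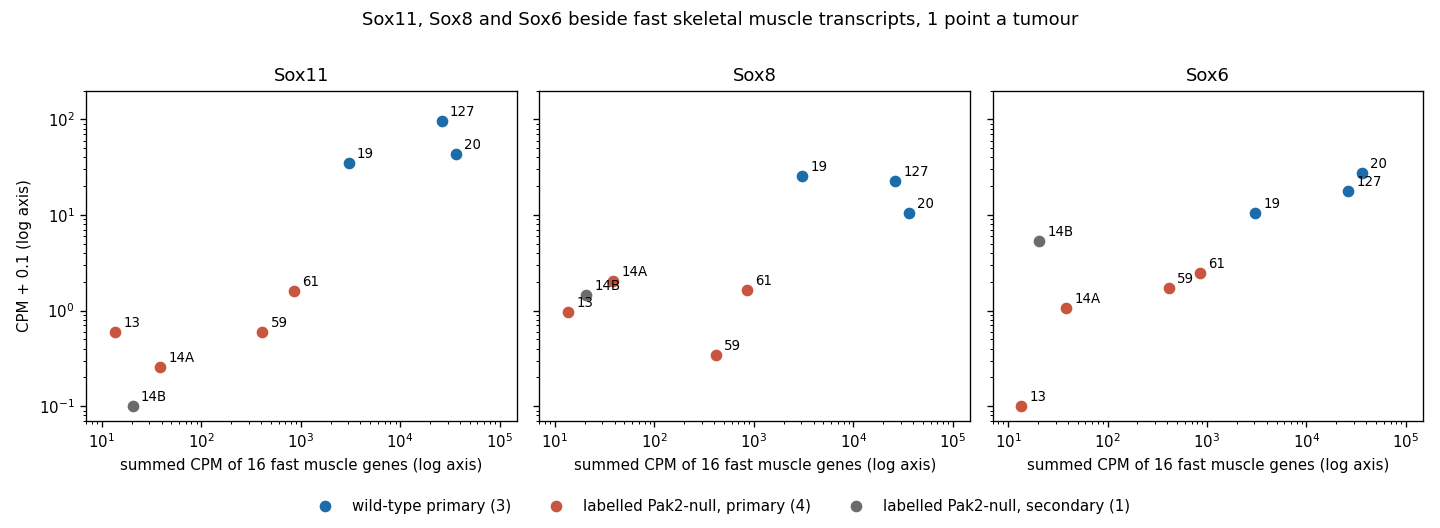
Sox11, Sox8 and Sox6 as CPM plus 0.1 against the summed CPM of 16 fast muscle genes, both on log axes, 1 point a tumour. All 3 wild-type tumours lie at the upper right, tumour 19 has a much lower muscle sum than 20 and 127 at a like level of Sox11 and a higher level of Sox8, and 14B lies above the primary tumours labelled Pak2-null in Sox6.

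Genes tied to these factors in other tissues were mostly mixed in direction, with cartilage matrix genes mostly lower. Of 10 cartilage genes tested, which SoxE and SoxD proteins activate in chondrocytes, 9 were lower, with a median of -2.58, although Sox9 had the higher mean. Chad, Comp and Matn4, matrix proteins of cartilage and tendon, were at -3.81 (SE 0.79), -3.58 (SE 0.82) and -4.57 (SE 1.16) on the log2 scale. Matn4 stood at 138 CPM in tumour 19 and at 4.66 and 17.5 CPM in wild-type 20 and 127. The main cartilage collagen gene Col2a1 was at 102 CPM in tumour 19, 69.4 in tumour 59, 9.88 in tumour 61 and at most 1.06 CPM elsewhere. The list summed to 87.1 CPM in tumour 13, where Sox9 was highest, and to 601 CPM in tumour 19.

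Of 10 tested genes linked to SoxC proteins in progenitors, 4 were lower and 6 higher, with a median of 0.14 that turned to -0.037 without tumour 20 and -0.074 without tumour 127. Map2 and Tubb3, 2 neuronal cytoskeleton genes that SoxC proteins can activate, lay on opposite sides at -2.47 (SE 0.76) and 3.40 (SE 1.38). The adhesion gene Ncam1 and the growth regulator gene Mycn were at -2.35 (SE 0.90) and -2.70 (SE 1.06), both with groups that overlapped. Mycn stood at 27.3 CPM in tumour 19, at 2.30 and 3.40 CPM in wild-type 20 and 127, and at 3.76 CPM in tumour 59. Tubb3 reached 243 CPM in tumour 13, which had 0.495 CPM of Sox11 and the most Sox4. In tumour 19, next in Sox4 at 88.6 CPM, Tubb3 was at 7.37 CPM. The part of Sox4 or Sox11 in the Tubb3 levels was not tested. Of 17 vascular and lymphatic genes linked to SoxF proteins 8 were lower and 9 higher, with a median of 0.054 that ran from -0.27 to 0.20 with 1 tumour left out. Among them the Notch target genes Hey1 and Hey2 were at -2.17 (SE 0.64) and -1.80 (SE 0.72) and the receptor gene Notch4 at 1.34 (SE 0.46).

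Schwann and neural crest markers, 12 of 12 tested, had 7 lower and 5 higher, with a median of -0.56. S100b, Ngfr and Egr2 were at -2.14 (SE 0.81), -4.03 (SE 1.10) and 1.41 (SE 0.37). Ngfr stood at 175 CPM in tumour 19 and at 10.1 and 11.2 CPM in wild-type 20 and 127. Over all the lists no gene passed edgeR's test after adjustment. At an unadjusted p under 0.05 there were 37 lower and 5 higher of the 129 tested, where all genes gave 8.55% and 4.39%. Of the 37, 15 were fast and 8 were slow muscle genes. DESeq2 called 32 of the 129 and limma-voom 0, where of all 15412 genes tested they called 1149 and 25. As the lists were chosen with earlier results of these data known, nothing is read from these counts.

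Among the rest of the family only Sox10 and Sox13 had enough counts for a fit. Sox10, the SoxE gene of Schwann cells and melanocytes, stood at 13.6, 12.8 and 9.31 CPM in wild-type tumours 19, 20 and 127 and at 0, 0.565, 12.03 and 2.89 CPM in Pak2-null-labelled 13, 14A, 59 and 61. Tumour 59 lay within the wild-type range and tumour 13 had no counts, so the groups overlapped, with a log2 fold change of -1.60 (SE 1.40). The SoxD gene Sox13 was at -0.08 (SE 0.64). Sox2, Sox14, Sox15, Sox21 and Sox30 stayed under 1 CPM in every tumour. No counts were found in any tumour for Sox1, Sox3 and Sry, even in the tumours with Y-linked transcripts.

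The genes most like Sox11, by Pearson correlation of log2 CPM over the 8 tumours, were Cdkn1c (r = 0.997), which encodes the cell cycle inhibitor p57Kip2, St8sia2 (r = 0.988), which encodes a polysialyltransferase acting on Ncam1, and Hif1an (r = 0.987), which encodes a hydroxylase of hypoxia-inducible factor. Cdkn1c stood at 60.8, 68.2 and 124 CPM in wild-type tumours 19, 20 and 127 and at 4.397, 3.13, 6.42 and 11.1 CPM in Pak2-null-labelled 13, 14A, 59 and 61, in the same order as Sox11 among the wild-type tumours. St8sia2 had at most 0.982 CPM in the Pak2-null-labelled primaries and 79.3 CPM in tumour 127. Most like Sox8 were Cacng7, Zfp772 and Ddx59 (r = 0.985, 0.973 and 0.961), and most like Sox6 were Hcfc1r1, Tcea3 and Cnksr1 (r = 0.969, 0.964 and 0.963). Without tumour 14B those 3 ranked 8, 26 and 16 for Sox6, and the 3 of Sox11 ranked 1, 5 and 8. These are the highest values among the genes tested and describe likeness only, over tumours that share libraries and scaling.

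The secondary tumour, 14B, has no replicate and is given by its values. Sox11 had 0 counts in it, which allows up to 0.311 CPM. Sox8 stood at 1.35 CPM, within the range of the primary tumours labelled Pak2-null. Compared with primary tumour 14A, which shares its number, Sox9 was 33.1 against 4.11 CPM, Sox6 5.29 against 0.976 CPM and Sox4 37.7 against 16.2 CPM. The differences of log2 CPM (prior count 2) were 2.97, 2.30 and 1.22 for these 3, and from -1.18 to 0.63 for the other 7. Tumour 14B also held pancreatic transcripts: the enzyme gene Ctrb1 took 5.04% of its counts (95% exact binomial interval 5.02% to 5.05%). Duct and gland markers summed to 163 CPM, against 49.4 CPM in 14A, with Muc1 at 29.1 against 3.803 CPM. The part of pancreatic tissue in the Sox9 level was not tested.

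RefSeq promoters (GRCm38.p6) were found for 6 of the 10 genes (Sox4, Sox5, Sox6, Sox8, Sox11 and Sox12), and the 250 bases before the start were searched on either strand for 5 motifs. Where a gene had several entries, as Sox6 did, the one nearest to the gene's start in the deposited table was used. The Sox5 entry starts 834871 bases from the start of the gene in the deposited table. The SOX motif AACAAT occurred in 0 of the 6 and in 9.42% of all 32851 promoters, the TCF/LEF motif TCAAAG in 0 and 13.8%, and the GLI motif GACCACCCA in 0 and 0.225%. The TEAD motif GGAATG occurred in 3 (Sox4, Sox5 and Sox6) and in 12.6% of all, and the E-box CAGCTG in 2 (Sox4 and Sox11) and 13.001%. No motif overlaps another by its letters in the promoters shown, and a match says only that these letters are there. The share over all promoters counts every entry of a gene. Of the 5 Sox6 entries left out, 1 held the SOX motif, 3 the TCF/LEF motif, 1 the TEAD motif and 1 the E-box.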

How the data were processed

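Per the labels' protocols, tumours were kept cold in RNA preservative and pulverised, and mRNA-enriched Illumina libraries were prepared from column-purified RNA. The authors deposited a table of raw read counts per gene, 1 column a tumour, with a gene length in bases. Alignment and counting tools named in the submitters' processing notes are STAR and HTSeq, with the build GRCm38 (mm10). No version, annotation release or strand setting is given in the sources used here. The table had 8 count columns, 0 columns of other samples and 0 rows without a gene name.

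The 4 primary tumours labelled Pak2-null were compared with the 3 wild-type tumours with edgeR 4.0.16 in R 4.3.3: filterByExpr (minimum count 10, total 15, leaving 15412 of 35275 genes), TMM factors, no covariate, the quasi-likelihood F test and Benjamini-Hochberg adjustment at 0.05. The SE of a log2 fold change is its size divided by the square root of F. CPM used counts of tested genes with TMM factors over all 8 tumours. The fit was tested on simulated data. With 1 sample, tumour 14B stayed out of the fit. Single-library intervals and floors cover counting error only.

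The members and the 11 gene lists were chosen with earlier results of these data known. Genes named are the members, Pak2, Nf2 and Cdkn2a as a label check, the rest of the Sox family, up to 3 members of a list with the lowest p, and the 3 genes most like each member whose mean log2 CPM was 1 or more (predicted genes left out). Some values under this rule are not reported here. Further genes of the lists (Tubb3, Msln, Upk3b, Calb2, Muc16, Cd79a, Pecam1, Kdr, Flt1, Col2a1, Tpm3 and Atp2a2) and Ctrb1, Xist and Ddx3y were named after their values were seen. List genes were matched to the file by symbol, 156 of 158. Copies were sought with BLAST 2.17.0 at 95% identity in GENCODE M21 transcripts. Alternatives were RLE, upper-quartile and no factors, 2 other filters, DESeq2 1.42.0, limma-voom 3.58.1 with and without quality weights, tumour 14B as its own group or pooled, and leaving out each tumour.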

Additional observations from a re-analysis of the deposited data

How the results depend on the processing

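No paired analysis was possible because the tumours of the 2 Pak2 groups share no number. The number of genes called was 11 and came to 20 with a filter of 1 CPM in 3 tumours, 1149 with DESeq2, 25 with limma-voom, 950 with quality weights, 4 with tumour 14B as a group of its own and 191 with it pooled, and ran from 0 (without tumour 20, 13, 59 or 61) to 59 (without tumour 19). Of the Sox genes 0 were called, against 1 without a count filter and 1 with the 1 CPM filter (Sox11), 3 with DESeq2, 3 with quality weights (Sox11, Sox8 and Sox6) and 2 with 14B pooled (Sox11 and Sox8). Of the genes on the other lists 0 were called, against 32 with DESeq2, 22 with quality weights, 3 with 14B pooled and 0 to 1 with a tumour left out. Over 17 alternatives Sox11 ran from -7.22 to -5.875, Sox8 from -4.66 to -3.72 and Sox6 from -4.75 to -3.17, and Sox4, Sox5 and Sox9 also kept their sign. The sign turned for Sox17 (-0.11 with limma-voom, -0.12 with 14B pooled, and -0.35 to 0.31 with a tumour left out), for Sox18 (0.25 with quality weights, and -1.25 to 0.041 with a tumour left out), for Sox12 (0.33 with quality weights, and -1.52 to 0.19 with a tumour left out) and for Sox7 (0.78 with quality weights, and -0.61 to 0.42 with a tumour left out, above 0 without 19, 13 or 14A). Medians turned too: that of the 10 Sox genes to 0.36 with quality weights, of endothelial markers to 0.075 with quality weights, of mesothelial markers to 0.25 with quality weights, 0.14 with 14B pooled and 0.027 without tumour 13, and of lymphocyte markers to -0.40 with quality weights. Without tumour 19 the medians were 0.13 for the Sox genes, 0.085 for endothelial, 1.16 for mesothelial and 0.74 for duct markers, and the duct median was -0.22 with the 1 CPM filter and -0.15 with 14B pooled. The cause was not tested. CPM from all counts without factors moved 1 of 20 group means by more than its SD (Sox17 in the wild-type tumours). At 3 to 26 counts of Sox11 and 4 to 38 of Sox8 a tumour, differences among the tumours labelled Pak2-null are at the limit of this depth.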

Other observations

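The likeness measure gave the other members different company, as values over the 8 tumours and without a test. The ranks depend on tumour 14B: without it, for example, Loxl3 ranked 7 and Lamb1 ranked 1 for Sox9, and Gdnf ranked 1 and Peg12 ranked 11 for Sox17. Sox9 was most like Loxl3, Lamb1 and Vstm5 (r = 0.988, 0.984 and 0.983), of which Loxl3 encodes a collagen cross-linking enzyme and Lamb1 a laminin chain. Loxl3 stood at 749 and 19.1 CPM in tumours 13 and 14A, those in which Sox9 was highest and lowest, and Lamb1 at 1058 and 41.2 CPM. Sox17 was most like Gdnf and Peg12 (r = 0.993 and 0.940). Gdnf, a neurotrophic factor gene, stood at 29.99 CPM in tumour 59 and had 0 CPM in 14B, again the extremes of Sox17. Sox4 was most like Kdelr1, Gpr124 and Farp1 (r = 0.990, 0.988 and 0.984), Sox5 like Rnf157, Irak3 and Osbpl9 (r = 0.995, 0.987 and 0.986), Sox7 like Fzd1, Mlkl and Col24a1 (r = 0.981, 0.979 and 0.970) and Sox12 like Greb1l, Med24 and Zfp13 (r = 0.977, 0.976 and 0.963). Irak3, an inhibitor gene of Toll-like receptor signalling in macrophages, stood at 69.8 and 92.99 CPM in tumours 14A and 14B, where Sox5 was highest, and from 14.1 to 32.04 CPM in the wild-type tumours. The Wnt receptor gene Fzd1, most like Sox7, had 169.7 CPM in 59 and 25.6 CPM in 14A.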
